A study of Rattus norvegicus with 4 samples.

Results

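The mammary glands of Hirosaki hairless rats (HHR) on day 1 of lactation were compared with that of Sprague-Dawley rats (SDR) on the same day, using the homozygous and the heterozygous HHR array together. These are 2 of the 4 arrays of the series. The arrays were hybridised with RNA from homozygous HHR on lactation day 1, heterozygous HHR on lactation day 1, SDR on involution day 1 and SDR on lactation day 1, with 1 array for each. The HHR is a hairless strain that was derived from Sprague-Dawley rats. The labels name neither the gene affected nor the number of animals behind an array, and do not say how the heterozygous animals were bred. With 1 array for each group there are no replicates, so no test was made, no difference has an error, and a difference of strain cannot be told apart from one between single animals or arrays.

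During lactation the luminal cells of the mammary alveoli secrete milk proteins, lactose and fat globules, while the myoepithelial cells around them contract to eject the milk. When milk removal stops the gland enters involution, in which milk synthesis ceases, acute phase and immune genes are switched on and the alveoli are dismantled. The major histocompatibility complex of the rat is called RT1: its class I molecules present peptides on nearly all cells, and its class II molecules present them on antigen-presenting cells.

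Each probe set has a MAS5 signal, a linear intensity, and signals under 91.5 (the 40th percentile over all arrays) were set to that floor. A gene was represented by its brightest probe set. For each of 14217 genes the log2 difference from SDR lactation was taken in both HHR arrays, and where both had the same sign the smaller one was kept. A gene was counted as different in both when the smaller difference was at least 2-fold. The SDR involution array then served as a second SDR array. Genes that also lay at least 2-fold from it in both HHR arrays, in the same direction, are described as having both SDR arrays apart. Genes where SDR involution itself lay at least 2-fold from SDR lactation on the side of the HHR arrays, without meeting that rule, are described as having SDR lactation alone. The rest are called between. In genes with SDR lactation alone, SDR involution may also lie far from the HHR arrays, on the side away from SDR lactation. Stage and animal both differ between the SDR arrays, so the classes describe where 4 values lie, and strain and stage cannot be told apart from them.

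The tissue label was checked against marker genes. The casein gene Csn1s1 gave signals of 51747 in homozygous HHR, 60311 in heterozygous HHR, 46394 in SDR involution and 59405 in SDR lactation, and the epithelial adhesion gene Epcam gave 22380, 15022, 31413 and 18299 in the same arrays. Both are abundant in all 4, as in mammary epithelium. Between 10368 and 10472 genes were above the floor in each array. As a sign of RNA integrity, the Gapdh control gave more 3′ than 5′ signal by a ratio of 2.30 in homozygous HHR, 1.93 in heterozygous HHR, 1.60 in SDR involution and 1.17 in SDR lactation, and the actin control by 5.91, 7.86, 4.80 and 4.60. Both ratios were higher in the HHR arrays than in the SDR arrays. The hexokinase control did not follow this order, at 6.75 in homozygous HHR, 2.11 in heterozygous HHR, 3.60 in SDR involution and 12.5 in SDR lactation, with its 5′ signal under the floor in every array. The part of RNA integrity in the results was not tested.

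In both HHR arrays 116 of 11122 measured genes (1.04%) were 2-fold or more higher than in SDR lactation, and 153 (1.38%) were lower by as much, 269 (2.42%) in all. The homozygous array alone had 410 higher genes (3.77% of those measured in it and SDR lactation) and 296 lower ones (2.72%). The heterozygous array alone had 498 higher (4.58%) and 451 lower (4.15%). The 116 shared higher genes made up 28.3% of the homozygous and 23.3% of the heterozygous higher genes, and the 153 shared lower genes 51.7% and 33.9% of the lower genes. Both comparisons use the same SDR lactation array, so a value that is off in that array alone enters both. At the threshold, Insl6 lay just inside with a smaller log2 difference of 1 and Matn2 just outside with 0.998. On the lower side Slc25a51l1 was just inside with -1 and Tmem52 just outside with -0.999.

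**Figure D1:**
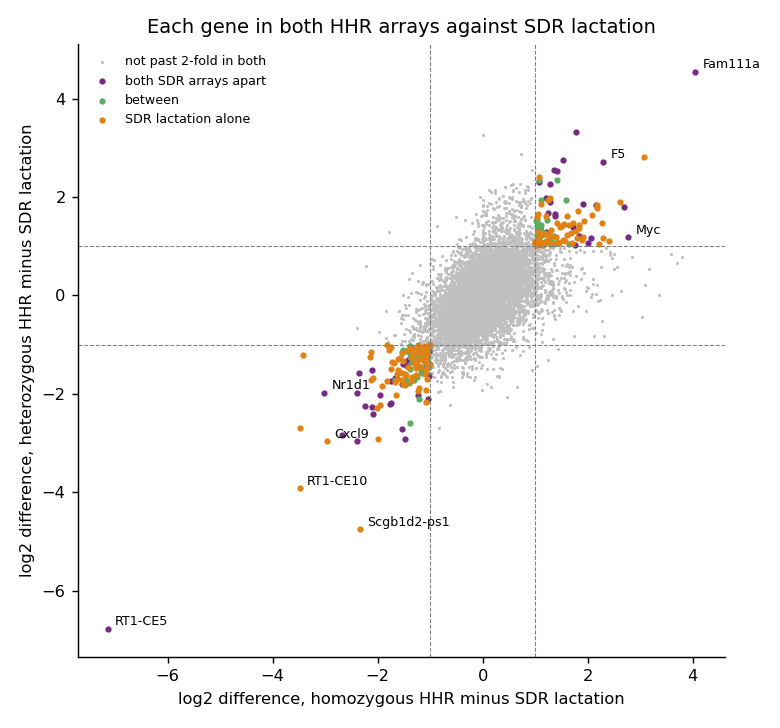
Log2 difference from SDR lactation of each gene in homozygous HHR (horizontal axis) and heterozygous HHR (vertical axis), with 1 point per gene and dashed lines at 2-fold. The 116 genes at the upper right and the 153 at the lower left passed 2-fold in both arrays and are coloured by where SDR involution lay, with Fam111a and RT1-CE5 farthest out.

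By the second SDR array both sets were divided into 3 classes. Of the 116 higher genes 29 (0.254% of the 11395 genes measured in 4 arrays) had both SDR arrays apart, 61 (0.535%) had SDR lactation alone and 26 lay between. Of the 153 lower genes 29 (0.254%) had both SDR arrays apart, 80 (0.702%) had SDR lactation alone and 44 lay between. SDR lactation alone thus described 52.6% of the higher and 52.3% of the lower genes. After median centring it described 52 of 117 higher and 87 of 158 lower genes, so the near-equal split depended on the scaling. Among those, SDR involution was at or beyond the nearer HHR array for 49 of the 61 higher and 64 of the 80 lower genes. Among the genes with both SDR arrays apart, SDR involution lay on the far side of SDR lactation, away from the HHR arrays, for 19 of 29 higher and 14 of 29 lower genes. The smaller log2 difference from SDR lactation had a median of 1.24 for the higher and -1.54 for the lower genes with both SDR arrays apart, and of 1.16 and -1.22 for those with SDR lactation alone.

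For comparison, both HHR arrays were at least 2-fold above SDR involution for 599 of 11237 genes (5.33%) and below it for 578 (5.14%). SDR involution was at least 2-fold above SDR lactation for 1129 of 11014 genes (10.3%) and below it for 985 (8.94%). The array of the other stage was thus farther from the HHR arrays than SDR lactation was.

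**Figure D2:**
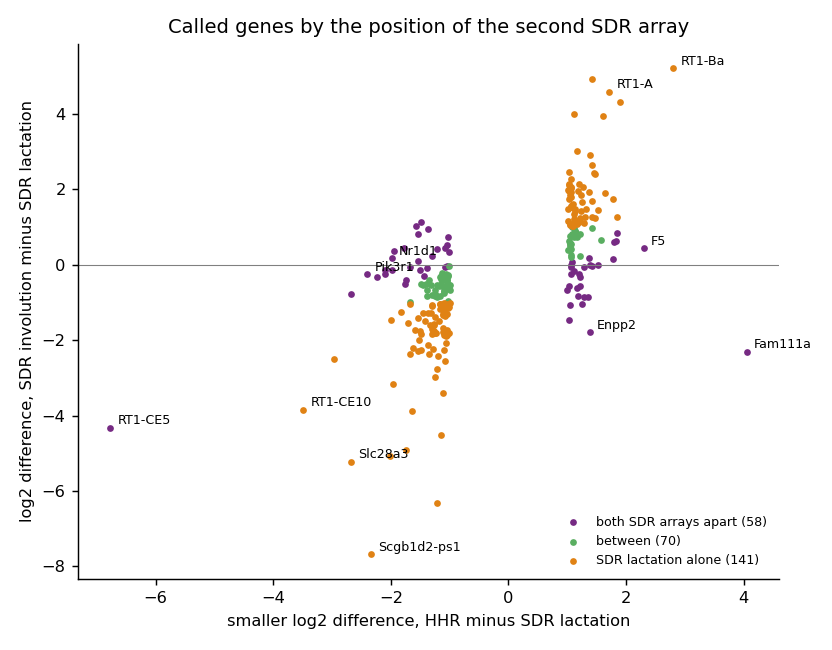
The smaller log2 difference of the HHR arrays from SDR lactation (horizontal axis) against the log2 difference of SDR involution from SDR lactation (vertical axis), with 1 point for each of the 269 genes. The 58 genes with both SDR arrays apart include Nr1d1, with SDR involution close to SDR lactation, and RT1-CE5, with SDR involution far towards the HHR arrays but still at least 5.47-fold from them. The 141 genes with SDR lactation alone include RT1-Ba and Scgb1d2-ps1, and 70 lay between.

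Fam111a, which encodes a protease that acts at DNA replication forks, had the greatest distance from both SDR arrays among the higher genes. Its signal was 10912 in homozygous HHR and 15339 in heterozygous HHR, against 133 in SDR involution and 658 in SDR lactation. Both HHR arrays were at least 16.6-fold above either SDR array, and its single probe set was above the floor in all 4 arrays.

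Several further genes with both SDR arrays apart on the higher side belong to the cell cycle. Foxm1, a transcription factor of the mitotic gene programme, gave 264 in homozygous HHR and 617 in heterozygous HHR and was at the floor in both SDR arrays, which makes the HHR arrays at least 2.89-fold higher. E2f8, a repressor of the E2F family, gave 426 and 967 in the HHR arrays, against the floor in SDR involution and 166 in SDR lactation. Uhrf1, which helps to copy DNA methylation onto new strands, gave 400 in homozygous HHR, 612 in heterozygous HHR, the floor in SDR involution and 164 in SDR lactation. In all 3 genes the heterozygous array was the highest.

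Chaf1a, a subunit of the factor that loads histones onto new DNA, gave 427 in homozygous HHR and 847 in heterozygous HHR, against 168 in SDR involution and 176 in SDR lactation. Mdc1, a scaffold at DNA breaks, gave 774 and 1678 in the HHR arrays, against 284 and 290 in the SDR arrays. Mybl1, a transcription factor of the MYB family, gave 478 in homozygous HHR, 648 in heterozygous HHR, 98.3 in SDR involution and 202 in SDR lactation. The SDR arrays lay within 2-fold of each other for Chaf1a and Mdc1 and just over 2-fold apart for Mybl1.

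These genes were compared with whole lists of cell cycle genes. Counts for this and every later list stand against 1.04% of all measured genes higher and 1.38% lower in both HHR arrays, and the lists were drawn up with earlier results known. Of 20 measured genes of DNA repair and chromatin of dividing cells, 4 were higher in both HHR arrays (Fam111a, Mdc1, E2f8 and Uhrf1) and 0 lower, and all 4 had both SDR arrays apart. The median log2 difference of this list was 0.31 in homozygous HHR, 1.35 in heterozygous HHR and -0.65 in SDR involution. Of 24 DNA replication genes 3 were higher in both (Chaf1a, Rfc3 and Pold1) and 0 lower, with medians of 0.20, 1.12 and -0.18 in those 3 arrays. Rfc3 and Pold1 had SDR lactation alone. Of 27 mitosis and spindle genes 0 passed 2-fold in both, while Foxm1, which did, lies outside this list. The heterozygous array was at least 2-fold above SDR lactation for 27 of these 27, and the homozygous array for 0. The mitosis list had a median log2 difference of 0.49 in homozygous HHR, 1.73 in heterozygous HHR and -2.48 in SDR involution, where the median of all measured genes was 0.00 in homozygous HHR, 0 in heterozygous HHR and 0.02 in SDR involution. Mki67, the proliferation marker, gave 4059 in homozygous HHR, 10701 in heterozygous HHR, 224 in SDR involution and 2496 in SDR lactation. Of the 2 HHR arrays, the heterozygous one was the farther from SDR lactation in this list.

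Genes with other roles also had both HHR arrays above both SDR arrays. F5, coagulation factor V, gave 580 in homozygous HHR and 772 in heterozygous HHR, against 160 in SDR involution and 118 in SDR lactation, a difference of at least 3.61-fold. Enpp2 encodes autotaxin, the enzyme that makes lysophosphatidic acid, and gave 2649 and 2108 in the HHR arrays, against 233 in SDR involution and 807 in SDR lactation. Sptbn4, a spectrin of the membrane skeleton of neurons, gave 315 in homozygous HHR and 915 in heterozygous HHR, against 103 in SDR involution and the floor in SDR lactation. Homozygous HHR was the higher HHR array for Enpp2, and heterozygous HHR for F5 and Sptbn4.

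Myc, the growth regulator, gave 2536 in homozygous HHR and 842 in heterozygous HHR, against 207 in SDR involution and 371 in SDR lactation. It was the single one of 23 measured immediate early genes that was higher in both HHR arrays. That list's median log2 difference was 0.62 in homozygous HHR, -0.09 in heterozygous HHR and 0.18 in SDR involution. Trak2, an adaptor that ties mitochondria to motor proteins, gave 2443 in homozygous HHR, 1962 in heterozygous HHR, 845 in SDR involution and 549 in SDR lactation, and its other probe set did not go the same way. Zcchc7, a zinc finger protein of nuclear RNA turnover, gave 1153 and 1107 in the HHR arrays, against 549 and 307 in the SDR arrays.

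**Figure D3:**
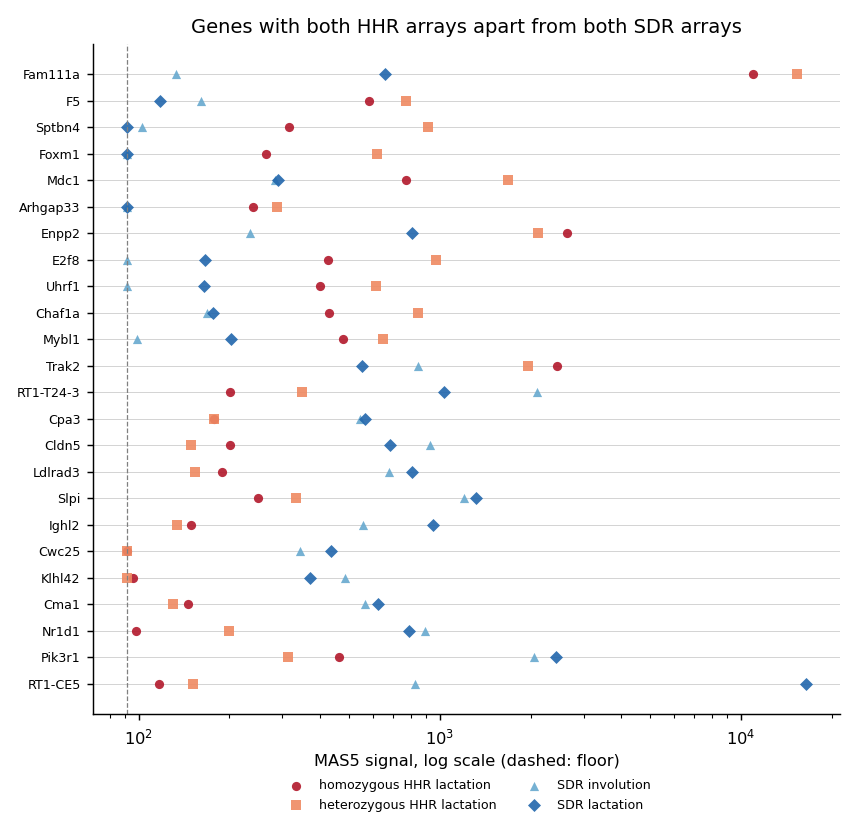
MAS5 signal on a log axis of the 12 higher and 12 lower genes with the greatest distance between both HHR arrays and both SDR arrays, with 1 symbol per array and the floor dashed. For each gene the red and orange symbols (homozygous and heterozygous HHR) lie on one side and the blue symbols (SDR involution and SDR lactation) on the other, by at least 2-fold.

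The lower genes with both SDR arrays apart had mixed roles, with signalling, clock and mast cell genes among them. The RT1 genes of this class are described further on. Pik3r1, the regulatory subunit of PI3-kinase, which is induced in early involution in the mouse, gave 461 in homozygous HHR and 312 in heterozygous HHR, against 2046 in SDR involution and 2434 in SDR lactation. The HHR arrays were at least 4.44-fold lower. Of the 19 measured genes of early involution and the Stat3 pathway Pik3r1 was the single one lower in both HHR arrays, and 0 were higher. The list's median log2 difference was 0.33 in homozygous HHR, -0.50 in heterozygous HHR and 0.90 in SDR involution.

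Nr1d1, which encodes the clock repressor REV-ERBα, gave 97.5 in homozygous HHR and 200 in heterozygous HHR, against 893 in SDR involution and 788 in SDR lactation. Per1, another repressor of the clock, gave 445 and 564 in the HHR arrays, against 103 in SDR involution and 215 in SDR lactation. These were the only 2 of 17 measured clock genes that passed 2-fold in both HHR arrays, and both had both SDR arrays apart. The clock list had a median log2 difference of -0.20 in homozygous HHR, -0.10 in heterozygous HHR and -0.34 in SDR involution. The hour at which the glands were taken is not given in the labels, and its part in these values was not tested.

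Cma1, the mast cell chymase, gave 145 in homozygous HHR and 130 in heterozygous HHR, against 565 in SDR involution and 622 in SDR lactation. Cpa3, the mast cell carboxypeptidase, gave 177 in both HHR arrays, against 543 in SDR involution and 566 in SDR lactation. Both are stored in mast cell granules. After these values were seen a list of mast cell genes was put together, of which 8 were measured in the lactation arrays, 0 were higher in both HHR arrays and these 2 were lower. The summed signal of the 11 mast cell genes above the floor in any array was 1822 in homozygous HHR, 2008 in heterozygous HHR, 3487 in SDR involution and 3654 in SDR lactation. Without Cma1 and Cpa3, which prompted the list, the sum of the other 9 was 1500 in homozygous HHR, 1701 in heterozygous HHR, 2379 in SDR involution and 2466 in SDR lactation. The defining genes Fcer1a and Ms4a2 were at the floor in all 4 arrays. In whole tissue, fewer cells of a type and less RNA per cell cannot be told apart, here and for every cell type below.

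Slpi, an inhibitor of leukocyte elastase, gave 250 in homozygous HHR and 332 in heterozygous HHR, against 1202 in SDR involution and 1316 in SDR lactation. It was the single one of 17 measured acute phase and inflammation genes that was lower in both HHR arrays, and 0 were higher in both. That list had a median log2 difference of 1.07 in homozygous HHR, 0.08 in heterozygous HHR and 0.95 in SDR involution, so the list as a whole was high in the homozygous array but not in the heterozygous one. Cldn5, the claudin of endothelial tight junctions, gave 201 and 149 in the HHR arrays, against 930 and 684 in the SDR arrays. Of 12 measured endothelial markers it was the single one lower in both by 2-fold, and 0 were higher. The list's median log2 difference was -0.45 in homozygous HHR, -0.65 in heterozygous HHR and -0.62 in SDR involution, so both HHR arrays and SDR involution were below SDR lactation. Sox18, an endothelial transcription factor outside that list, gave 388 in homozygous HHR, 411 in heterozygous HHR, 617 in SDR involution and 1465 in SDR lactation, and had SDR lactation alone. Summed over the 12, the signal was 11004 in homozygous HHR, 9640 in heterozygous HHR, 9318 in SDR involution and 14906 in SDR lactation, and its part in the Cldn5 result was not tested.

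Adgre1, the F4/80 antigen of macrophages, gave 118 in homozygous HHR and 129 in heterozygous HHR, against 639 in SDR involution and 333 in SDR lactation. The summed signal of the 17 macrophage and neutrophil markers was 34547 in homozygous HHR, 17814 in heterozygous HHR, 46814 in SDR involution and 28250 in SDR lactation, with Itgam at the floor throughout. Of these 17 genes Adgre1 was the single one lower in both HHR arrays, and 2 neutrophil genes, S100a8 and S100a9, were higher in both. The list's median log2 difference was -0.14 in homozygous HHR, -0.47 in heterozygous HHR and 0.12 in SDR involution. In the sum, unlike in Adgre1, homozygous HHR was above SDR lactation. The sum leans on its member Cd14, with 16494 in homozygous HHR, 4533 in heterozygous HHR, 20076 in SDR involution and 5985 in SDR lactation. The list's median, by contrast, was below SDR lactation in homozygous HHR. Cwc25, a splicing factor, was at the floor in both HHR arrays and gave 344 in SDR involution and 433 in SDR lactation, at least 3.76-fold more. Klhl42, an adaptor of a ubiquitin ligase, gave 95.9 in homozygous HHR and the floor in heterozygous HHR, against 482 and 372 in the SDR arrays. Ldlrad3, a membrane protein of the LDL receptor class, gave 189 and 153 in the HHR arrays, against 679 and 807 in the SDR arrays.

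Differences in both directions were found among the RT1 genes of rat chromosome 20. All 18 RT1 genes on the array were above the floor in at least 1 array, and in both HHR arrays 3 of them were higher and 9 lower by 2-fold or more. These counts go by the brightest probe set and include RT1-Ba, RT1-Bb and RT1-Db1, whose direction changed with the probe set. The 2 HHR arrays lay within 2-fold of each other for 17 of the 18, with a median ratio of 1.30-fold and RT1-N2 as the exception at 2.50-fold. The 2 SDR arrays lay within 2-fold of each other for 8 of the 18, with a median ratio of 2.13-fold and a maximum of 37.1-fold. Over all measured genes, 6.9% differed at least 2-fold between the HHR arrays and 19.2% between the SDR arrays. RT1 genes are near copies of one another, vary between haplotypes, and their probe sets may not tell members or alleles apart, so each RT1 value is uncertain as to gene.

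RT1-CE5, a class I gene, gave 117 in homozygous HHR and 151 in heterozygous HHR, against 825 in SDR involution and 16488 in SDR lactation. Both HHR arrays were at least 109-fold below SDR lactation and 5.47-fold below SDR involution. The 4 of its 5 probe sets that were above the floor in any array were all lower in both HHR arrays than in SDR lactation. By its brightest probe set it counts among the genes with both SDR arrays apart, although the SDR arrays also lay far from each other. The class and the sizes depended on the probe set. Another gave 445 in homozygous HHR, 223 in heterozygous HHR, 492 in SDR involution and 4222 in SDR lactation. A further one gave 123, the floor, 216 and 280 in the same arrays. In neither was homozygous HHR 2-fold below SDR involution. The last gave the floor, 145, 441 and 7376.

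RT1-CE10, also of class I, gave 481 in homozygous HHR, 358 in heterozygous HHR, 374 in SDR involution and 5398 in SDR lactation. RT1-CE16 gave 759 and 627 in the HHR arrays, the floor in SDR involution and 3067 in SDR lactation. Both thus met the rule for SDR lactation alone. For RT1-CE16, however, the HHR arrays lay between the SDR arrays, at least 6.85-fold above SDR involution and 4.04-fold below SDR lactation. RT1-T24-3 gave 201 in homozygous HHR and 347 in heterozygous HHR, against 2100 in SDR involution and 1030 in SDR lactation, and RT1-N3 gave 119 and the floor in the HHR arrays, against 344 and 252. These 2 non-classical class I genes had both SDR arrays apart, and were the only pair of such genes within 5 genes of each other on a chromosome.

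In the opposite direction, RT1-A gave 323 in homozygous HHR, 300 in heterozygous HHR, 2205 in SDR involution and the floor in SDR lactation. RT1-T24-4 gave 2843 in homozygous HHR, 2376 in heterozygous HHR, 4519 in SDR involution and 857 in SDR lactation. In both genes SDR involution was the highest array and SDR lactation the lowest.

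The class II genes depended on the probe set. RT1-Ba, the alpha chain of RT1-B, gave 765 in homozygous HHR, 638 in heterozygous HHR, 3398 in SDR involution and the floor in SDR lactation with its brightest probe set. Another of its probe sets was at the floor in homozygous HHR, heterozygous HHR and SDR involution and gave 9050 in SDR lactation. A further one was at the floor in both HHR arrays and gave 311 in SDR involution and 8258 in SDR lactation. The last gave 826 in homozygous HHR, 802 in heterozygous HHR, 234 in SDR involution and 488 in SDR lactation. The brightest probe set of RT1-Bb, the beta chain, gave 777 and 816 in the HHR arrays, the floor in SDR involution and 2731 in SDR lactation, while its other probe set gave 332, 385, 144 and the floor in the same arrays. RT1-Db1, a class II beta chain, gave 418 in homozygous HHR, 553 in heterozygous HHR, 992 in SDR involution and 1197 in SDR lactation with its brightest probe set, and 430, 342, the floor and 189 with another. The direction for RT1-Ba, RT1-Bb and RT1-Db1 is therefore not settled. RT1-Da, with 1 probe set, gave 1912 in homozygous HHR, 2492 in heterozygous HHR, 4241 in SDR involution and 5511 in SDR lactation.

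**Figure D4:**
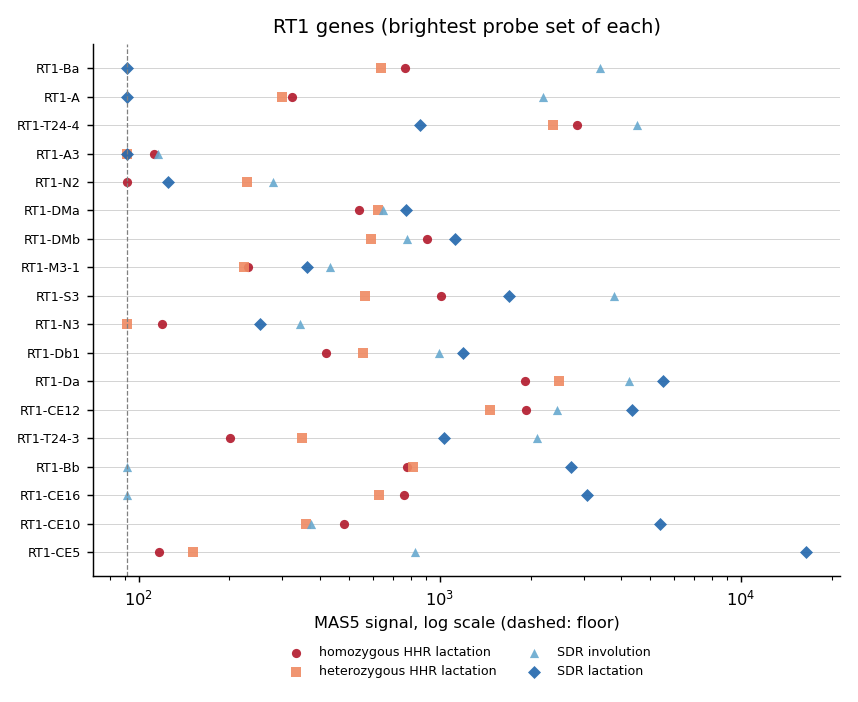
MAS5 signal on a log axis of the 18 RT1 genes in the 4 arrays, by the brightest probe set of each, ordered by the smaller difference from SDR lactation. The red and orange symbols (homozygous and heterozygous HHR) lie close together in 17 genes, while the blue symbols (SDR involution and SDR lactation) are often far apart.

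The promoters of 3 class I genes and 1 class II gene that were lower in both HHR arrays are shown because MHC genes are known to share short promoter elements. They come from RefSeq on build GRCr8, and give the reference genome, not the SDR or HHR allele. Capitals mark each match, on either strand, to TTTCNNTT, a core of the interferon-stimulated element, and to ATTGG, the inverted CCAAT or Y box. RT1-CE5 lies at chr20:3484091-3484340 (minus strand), RT1-CE10 at chr20:3384980-3385229 (minus strand), RT1-CE16 at chr20:3265444-3265693 (minus strand) and RT1-Da at chr20:4515165-4515414 (plus strand).
RT1-CE5: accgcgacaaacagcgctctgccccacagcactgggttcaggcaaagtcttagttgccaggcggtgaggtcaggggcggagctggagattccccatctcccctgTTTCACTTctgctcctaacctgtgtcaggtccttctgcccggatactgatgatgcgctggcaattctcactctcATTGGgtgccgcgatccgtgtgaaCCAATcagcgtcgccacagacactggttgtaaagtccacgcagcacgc
RT1-CE10: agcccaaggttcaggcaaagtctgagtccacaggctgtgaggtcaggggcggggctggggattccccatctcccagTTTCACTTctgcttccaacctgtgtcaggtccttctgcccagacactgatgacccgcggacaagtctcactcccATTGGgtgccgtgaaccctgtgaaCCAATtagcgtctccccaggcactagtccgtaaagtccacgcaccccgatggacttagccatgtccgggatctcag
RT1-CE16: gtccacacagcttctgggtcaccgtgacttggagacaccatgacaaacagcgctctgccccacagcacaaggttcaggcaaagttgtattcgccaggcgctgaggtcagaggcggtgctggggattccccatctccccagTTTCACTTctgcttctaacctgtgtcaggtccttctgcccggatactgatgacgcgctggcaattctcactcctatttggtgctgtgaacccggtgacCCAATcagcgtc
RT1-Da: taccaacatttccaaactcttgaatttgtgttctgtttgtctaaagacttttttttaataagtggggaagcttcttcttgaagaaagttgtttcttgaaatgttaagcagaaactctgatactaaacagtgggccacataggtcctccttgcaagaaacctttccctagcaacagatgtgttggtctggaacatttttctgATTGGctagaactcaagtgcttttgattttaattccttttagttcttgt
All 3 class I promoters shown held both elements, and the RT1-Da promoter held the Y box alone. The promoter of RT1-CE12, another class I gene lower in both HHR arrays, held the interferon element core without a Y box. Of the 12 RT1 genes that passed 2-fold 11 had a promoter in the RefSeq table, of which 7 held the first element in the same 250-base window, 9 the second and 5 both. Over all 27457 promoters 23.0% held the first and 34.3% the second. In the 4 sequences shown, no match of one motif overlaps a match of the other, and a match is a description of letters.

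Chromosome 20 had the highest share of genes different in both HHR arrays of the 21 chromosomes, with 20 of 331 measured genes (6.04%). Without its 17 RT1 genes the share was 9 of 314 (2.87%), and that of the other chromosomes ran from 0% on chromosome 19 to 3.72% on chromosome 4. The RT1 genes were taken out by symbol, not by position, and Tap2 and Mdc1 were among the 9 that remained. Of the 58 genes with both SDR arrays apart 6 were on chromosome 20 (1.81% of its measured genes), or 3 without RT1, while chromosome 1 held 9 (0.648%) and chromosome 9 held 5 (1.16%).

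RT1 molecules depend on genes that cut, carry and load peptides. Of 16 measured genes of antigen processing and peptide loading 2 were lower in both HHR arrays and 0 higher, with a median log2 difference of -0.31 in homozygous HHR, -0.22 in heterozygous HHR and -0.21 in SDR involution. Tap2, a subunit of the peptide transporter, gave 348 in homozygous HHR, 322 in heterozygous HHR, 514 in SDR involution and 912 in SDR lactation. Cd74, the class II invariant chain, gave 2833 and 3387 in the HHR arrays, against 5333 and 7512 in the SDR arrays. B2m, the light chain of class I molecules, gave 33073 in homozygous HHR, 34368 in heterozygous HHR, 31730 in SDR involution and 40188 in SDR lactation, so the 4 arrays lay within 2-fold of each other for it.

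Of 26 measured interferon response genes 2 were lower in both HHR arrays and 0 higher. Irf7, a transcription factor of the interferon loop, gave 437 in homozygous HHR and 287 in heterozygous HHR, against 1480 in SDR involution and 892 in SDR lactation. Cxcl9, an interferon-gamma induced chemokine, gave 391 in both HHR arrays, 538 in SDR involution and 3051 in SDR lactation. Irf7 had both SDR arrays apart, and Cxcl9 had SDR lactation alone. The median log2 difference of the list was -0.48 in homozygous HHR, -0.87 in heterozygous HHR and 0.70 in SDR involution.

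T cell markers were lower in 2 of 15 measured genes and higher in 0. These were Cd4, at the floor in both HHR arrays, 127 in SDR involution and 218 in SDR lactation, and the chemokine Ccl5, at 361 and 414 in the HHR arrays, 383 in SDR involution and 846 in SDR lactation. The summed T cell marker signal was 3894 in homozygous HHR, 4021 in heterozygous HHR, 3601 in SDR involution and 5619 in SDR lactation, with Cd8a and Cd28 at the floor throughout. SDR lactation was thus the highest array in the T cell sum as well as in Cxcl9, RT1-CE5 and RT1-Da. Other genes had another order, with Irf7, RT1-A, RT1-T24-3 and RT1-T24-4 highest in SDR involution. The part of T cells in the interferon and RT1 results was not tested.

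Milk protein genes had small median differences between the lactation arrays. Of 9 measured genes 1 was lower in both HHR arrays, Spp1 (osteopontin), which was at the floor in both HHR arrays and in SDR involution and gave 183 in SDR lactation. The list's median log2 difference was -0.20 in homozygous HHR, -0.01 in heterozygous HHR and -0.41 in SDR involution. Csn3, kappa-casein, gave 53588 in homozygous HHR, 59591 in heterozygous HHR, 46227 in SDR involution and 60152 in SDR lactation. Saturation flags were not used here.

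Among 27 measured genes of milk fat synthesis and the globule coat 3 were lower in both HHR arrays and 0 higher, all 3 with SDR lactation alone. Thrsp, a regulator of fatty acid synthesis, gave 12333 in homozygous HHR, 10763 in heterozygous HHR, 8819 in SDR involution and 29683 in SDR lactation. Scd, the stearoyl-CoA desaturase, gave 943 and 931 in the HHR arrays, 342 in SDR involution and 2000 in SDR lactation. Cd36, a fatty acid transporter, gave 7958 in homozygous HHR, 15568 in heterozygous HHR, 1511 in SDR involution and 34685 in SDR lactation. In each of the 3 SDR lactation was the highest array and SDR involution the lowest. The list's median log2 difference was -0.28 in homozygous HHR, -0.12 in heterozygous HHR and -1.69 in SDR involution.

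Of 14 measured adipocyte markers 3 were lower in both HHR arrays and 0 higher: Fabp4, the fatty acid carrier of fat cells, with 9885 in homozygous HHR, 9507 in heterozygous HHR, 5137 in SDR involution and 23931 in SDR lactation, the glycerol channel Aqp7 with 298, 368, 219 and 955, and Pparg, the adipogenic receptor, with 254, 269, 257 and 547 in the same arrays. The summed signal of the 14 markers was 63767 in homozygous HHR, 70161 in heterozygous HHR, 18299 in SDR involution and 83796 in SDR lactation, with Lep and Ucp1 at the floor throughout. Of these sums Cidea alone gave 25579 in homozygous HHR, 33493 in heterozygous HHR, 3158 in SDR involution and 32754 in SDR lactation. The median log2 difference of the list was 0.27 in homozygous HHR and 0.10 in heterozygous HHR. The list's median was thus above SDR lactation in both HHR arrays, while Fabp4, Aqp7 and Pparg were below it. The counts go by the brightest probe set. For Car3, a member that did not pass, the dimmer probe set did. It gave 523 in homozygous HHR, 682 in heterozygous HHR, 423 in SDR involution and 1433 in SDR lactation. Hbb, beta-globin, was the single one of 3 measured red cell markers that was lower in both HHR arrays, and gave 6945 in homozygous HHR, 4461 in heterozygous HHR, 3425 in SDR involution and 14503 in SDR lactation.

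Folr1, the folate receptor, was the single one of 26 measured genes of lactose, ion and vitamin secretion that was lower in both HHR arrays, with 4323 in homozygous HHR, 3841 in heterozygous HHR, 4738 in SDR involution and 12549 in SDR lactation. Slc28a3, a nucleoside transporter, gave 555 and 961 in the HHR arrays, 165 in SDR involution and 6177 in SDR lactation. Scgb1d2-ps1, annotated as a secretoglobin pseudogene, gave 3817 in homozygous HHR, 722 in heterozygous HHR, 94.4 in SDR involution and 19375 in SDR lactation. Ptn, the growth factor pleiotrophin, gave 276 and 230 in the HHR arrays, 120 in SDR involution and 1072 in SDR lactation. For these 4 genes SDR lactation stood above the other 3 arrays.

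Among the higher genes with SDR lactation alone, which are above SDR lactation in SDR involution by definition, some were highest in SDR involution and others in an HHR array. Wfdc2, a secreted protease inhibitor of epithelia, gave 591 in homozygous HHR, 360 in heterozygous HHR, 1949 in SDR involution and 96.8 in SDR lactation. S100a9, the calcium-binding protein of neutrophils, gave 280 and 278 in the HHR arrays, 1409 in SDR involution and the floor in SDR lactation, and its partner S100a8 gave 325, 246, 2809 and the floor. Bex1 gave 908 in homozygous HHR, 857 in heterozygous HHR, 1695 in SDR involution and 312 in SDR lactation. These 4 were highest in SDR involution. Dip2a, at 654 and 480 in the HHR arrays, 577 in SDR involution and 154 in SDR lactation, and the centrosomal gene Nedd1, at 450 and 353 in the HHR arrays, 237 in SDR involution and 98.8 in SDR lactation, were low in SDR lactation without being highest in SDR involution.

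Of 14 measured myoepithelial markers 1 was higher and 1 lower in both HHR arrays. Krt5, a basal keratin, gave 5448 in homozygous HHR and 6633 in heterozygous HHR, against 2693 in SDR involution and 2564 in SDR lactation, and had both SDR arrays apart. Oxtr, the oxytocin receptor that triggers milk ejection, was at the floor in homozygous HHR and SDR involution, at 146 in heterozygous HHR and at 316 in SDR lactation. The list's median log2 difference was 0.60 in homozygous HHR, 0.68 in heterozygous HHR and 0.16 in SDR involution, and its summed signal was 56917 in homozygous HHR, 59209 in heterozygous HHR, 42995 in SDR involution and 35922 in SDR lactation. Its part in the Krt5 result was not tested.

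Krt5 was also the single one of 6 measured keratins of the type II cluster that passed 2-fold in both HHR arrays. That list had a median log2 difference of 0.91 in homozygous HHR, 0.08 in heterozygous HHR and 1.65 in SDR involution. Summed over 15 luminal epithelial markers the signal was 86902 in homozygous HHR, 69271 in heterozygous HHR, 131947 in SDR involution and 75509 in SDR lactation, and 0 of the 14 measured passed 2-fold in both HHR arrays.

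The remaining lists gave 0 or 1 gene each in both HHR arrays. Cholesterol synthesis (17 measured genes), prolactin and Stat5 signalling (15), lysosome (21), apoptosis and survival (18), hormone-sensing cells (3), fibroblasts and matrix (20), B and plasma cells (3), skeletal muscle (5) and skin epidermis and hair (5) had 0 in either direction. These counts go by the brightest probe set. A dimmer probe set of the prolactin receptor gene Prlr gave 931 in homozygous HHR, 988 in heterozygous HHR, 525 in SDR involution and 3602 in SDR lactation. A dimmer one of the skeletal muscle gene Myh1 gave 3106, 3491, 1465 and 808.5 in the same arrays. Both passed 2-fold in both HHR arrays, Prlr lower and Myh1 higher. Outside the B and plasma cell list, Ighl2, annotated as an immunoglobulin V segment, gave 149 in homozygous HHR and 133 in heterozygous HHR, against 556 in SDR involution and 951 in SDR lactation, and had both SDR arrays apart. The stress response gene Dnajb9, the glutathione transferase gene Gstt1 and the Schwann cell gene S100b were lower, and the heat shock gene Cryab was higher, each as the single one of its list. All 4 except Gstt1 had SDR lactation alone.

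**Figure D5:**
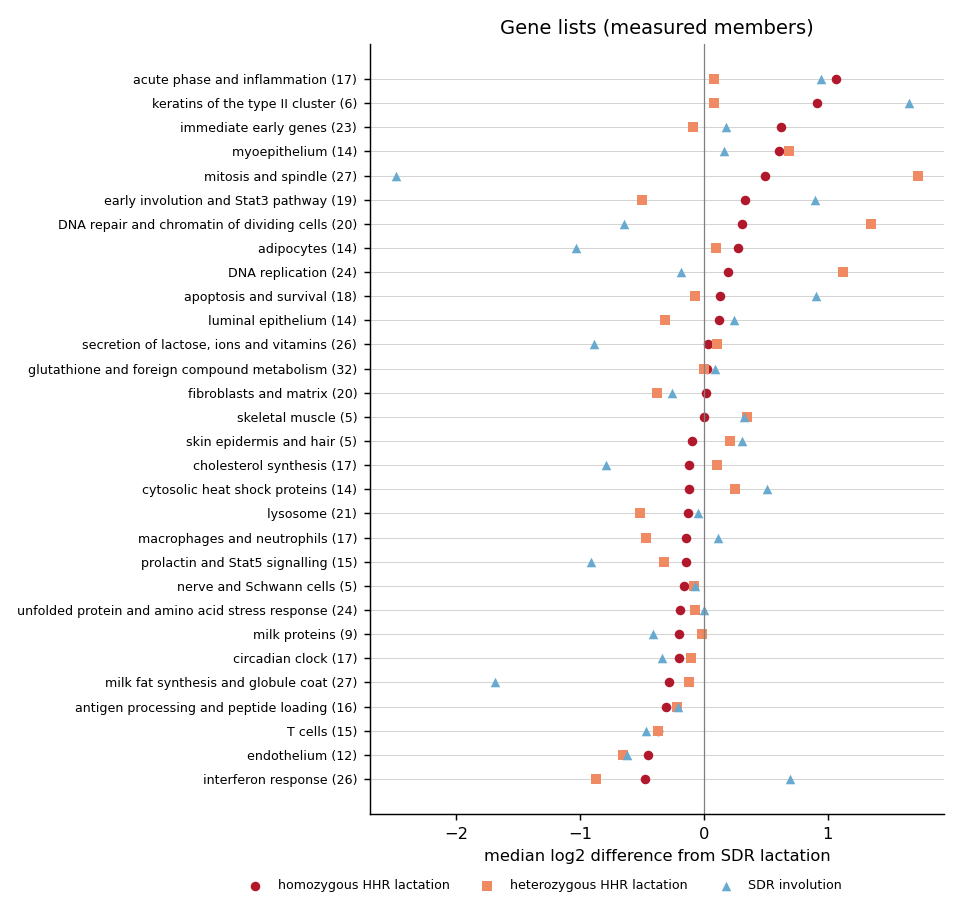
Median log2 difference from SDR lactation of each list with at least 5 measured members (number in brackets) in homozygous HHR, heterozygous HHR and SDR involution. The medians are 0.49 in homozygous and 1.73 in heterozygous HHR for mitosis, 0.60 and 0.68 for myoepithelium and -0.48 and -0.87 for the interferon response, while milk fat synthesis is at -0.28 and -0.12 in the HHR arrays and at -1.69 in SDR involution.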

How the data were processed

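RNA from rat mammary gland was measured on 4 Affymetrix arrays. The authors deposited MAS5 signals (the tool comes from the submitters' processing notes, with no version), a linear intensity for each of 31099 probe sets. The trimmed mean was about 500.2 in each array, read from the values. Detection calls were not used here. Each column was matched to its sample through its name, and 0 stayed unmapped. After 57 control probe sets were left out, 20826 probe sets had 1 gene symbol in the platform annotation, 436 had several and 9780 had none, and only the first were used.

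With Python 3.11.15, numpy 2.4.6 and pandas 2.3.3, signals were floored at the 40th percentile (91.5), the brightest probe set by mean log2 was taken per gene, and genes at least 2-fold different in both HHR arrays were counted. A gene counted as measured if any of the arrays compared had it above the floor. The steps were tested on simulated data. Folds against the floor are bounds. No test was possible with 1 array per group, and the number of arrays limits the precision.

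The members, gene lists and rules were chosen with earlier results of these data known, and the mast cell list was added after values were seen. Named genes were the 15 with the largest smaller difference per direction, 5 at the floor, 12 with the greatest distance from both SDR arrays, 6 with SDR lactation alone, up to 4 past 2-fold and 2 others per list, RT1 genes, neighbours, and genes opposite in the HHR arrays. Other scalings, floors, probe set rules and thresholds were tried. Sequences are from RefSeq on GRCr8.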

Additional observations from a re-analysis of the deposited data

Results flagged for a closer look

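In 4 genes the HHR arrays passed 2-fold from SDR lactation in opposite directions, and the difference between them was not tested, with 1 array each. Gtse1, a mitotic regulator of p53, was at the floor in homozygous HHR, 776 in heterozygous HHR, the floor in SDR involution and 317 in SDR lactation, a log2 difference of homozygous minus heterozygous of -3.08. The RNA-binding protein gene Mex3b gave 575 and 98.6 in the HHR arrays, 176 in SDR involution and 243 in SDR lactation, a difference of 2.54. Sdr16c5, a retinol dehydrogenase, gave 524 in homozygous HHR, the floor in heterozygous HHR, 4175 in SDR involution and 193 in SDR lactation, a difference of 2.52. Tcp11l2 gave 2233 and 402 in the HHR arrays, 3838 in SDR involution and 1086 in SDR lactation, a difference of 2.47. In Gtse1, Sdr16c5 and Tcp11l2 the homozygous array and SDR involution lay on the same side of SDR lactation, and in Mex3b they did not.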

How the results depend on the processing

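The counts of higher and lower genes in both HHR arrays, 116 and 153, were 117 and 158 after median centring and 110 and 158 after quantile normalization, with SDR lactation alone in 52 higher and 87 lower genes under both. They depended on the floor and the threshold. With the floor at the 25th percentile there were 208 higher and 240 lower genes, of which 50 and 51 had both SDR arrays apart and 113 higher ones had SDR lactation alone. At the 55th percentile 66 were higher, 18 higher and 18 lower ones had both SDR arrays apart, and 33 higher ones had SDR lactation alone. With the floor added as a pseudocount the counts were 50 higher and 95 lower, with both SDR arrays apart in 11 and 19 and SDR lactation alone in 22 and 49. At 3-fold they were 13 and 29, with 3 and 11 apart and 6 and 11 alone. By the mean of both HHR differences they were 318 and 265, with 115 and 63 apart and 130 and 124 alone. With SDR involution in place of SDR lactation, an alternative chosen after seeing the data, they were 599 and 578. The mean of all probe sets gave 81 higher and 165 lower. Of 83 named genes past 2-fold, 57 kept it at the 55th percentile, 62 with the pseudocount and 33 at 3-fold. The direction reversed for RT1-Ba (-2.33) and RT1-Bb (0.022) by the mean of all probe sets, and for RT1-Db1 (0.86) without probe sets whose suffix marks shared probes. No paired analysis was possible because each group has 1 array. Without detection calls, values just above the floor may be background, and the floor shrinks differences of dim genes.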
